A study of Mus musculus with 4 samples.

Results

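Lambda cells are described here: barcodes of the control B220lo library with an assembled heavy-chain (IGH) contig, a lambda light-chain (IGL) contig and no kappa (IGK) contig. They were chosen by this combination of contigs among barcodes that passed 3 quality limits: no fewer than 1000 UMIs (unique molecular identifiers, counted transcripts), no fewer than 500 detected genes, and a mitochondrial share no higher than 10%. The rule found 1197 lambda cells among 16329 kept barcodes of that library (7.33%) and 55216 kept barcodes in all 4 libraries. They were compared with 5786 kappa cells of the same library, which had IGH and IGK contigs and no IGL contig. The series holds single-cell libraries, 1 per group, of mouse bone marrow sorted for CD45.2 at 10 weeks after transplantation: control Kit+, Mll3/4 deleted Kit+, Mll3/4SI Kit+ and control B220lo. The sources used here give no strain, sex, donor genotype, host preparation or number of mice for the control group. All lambda and kappa cells come from 1 library, so no difference was tested, and every interval covers counting error only.

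B cells build their receptor stepwise: a pro-B cell joins a heavy chain, a large pre-B cell divides with that chain paired to the surrogate light chain, and a small resting pre-B cell then rearranges a light chain. In mice the kappa locus usually rearranges first, and lambda is reached when kappa joining has failed or its product has been edited. The mouse lambda locus is small, with few variable (V) and joining (J) segments, whereas the kappa locus holds a large V array. An immature B cell that carries a finished receptor turns on Ms4a1 (CD20), and plasma cells secrete the receptor as antibody.

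The label was checked first. A contig counts as present from a single UMI, and the support of the leading IGL contigs ranged from 1 to 10939 UMIs. A contig of 10 or more UMIs stood in 802 lambda cells (67.0%, 64.3 to 69.7), 4 to 9 UMIs in 112 cells (9.36%) and 1 to 3 UMIs in 283 cells (23.6%, 21.3 to 26.2). Of the kappa cells, 3803 stood at 10 or more UMIs (65.7%), 917 at 4 to 9 (15.8%) and 1066 at 1 to 3 (18.4%). The marker Iglc1, the lambda 1 constant region, stood at 905 CPM (a gene's UMIs summed over the cells and scaled to a common total) in the 802 cells and at 421 CPM in the 787 of them that were not antibody-secreting. It stood at 5.61 CPM in the 283 cells with 1 to 3 contig UMIs, below the 67.1 CPM of 1799 cells with an IGH contig and no light-chain contig. Iglc2 went the same way, at 1327 CPM (1227 without secreting cells), 31.6 and 169.7 CPM. Summed Iglc1 and Iglc2 levels of the 283 cells thus lay below those of cells without a light-chain contig. Their median depth of 3820 UMIs was nevertheless above the 2625 UMIs of the 802 cells. By share of cells the order was another: a UMI of a lambda variable gene was found in 92.2% of the 283 cells, at a median of 1 UMI, in 100% of the 802 at a median of 44, and in 43.5% of IGH-only cells. Weakly supported kappa cells also had little of their constant gene. Igkc, the kappa constant region, stood at 71.5 CPM in the 1066, near the 71.3 CPM of IGH-only cells. In non-secreting kappa cells with 10 or more contig UMIs it stood at 364 CPM. Iglv1, a lambda variable gene, stood at 866 CPM in the 1066 and at 365 CPM in those better supported kappa cells. Contigs and gene counts come from the same RNA, so these values are partly fixed by the choice of the sets and are no independent check of either. The constant genes followed the constant region named in the contig only in part. Contigs with lambda J segment 1 (IGLJ1) carried IGLC1 or none. Without secreting cells, the 726 IGLJ1 cells nevertheless held Iglc2 at 543 CPM and Iglc1 at 187 CPM. With secreting cells the IGLJ1 values were 583 and 594 CPM in the same order. The 325 non-secreting cells with IGLJ2 contigs, which mostly carried IGLC2, held Iglc2 at 983 CPM and Iglc1 at 351 CPM. IGLJ1 cells include 255 of the 283. Low Iglc1 or Iglc2 levels therefore cannot decide the label.

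**Figure D1:**
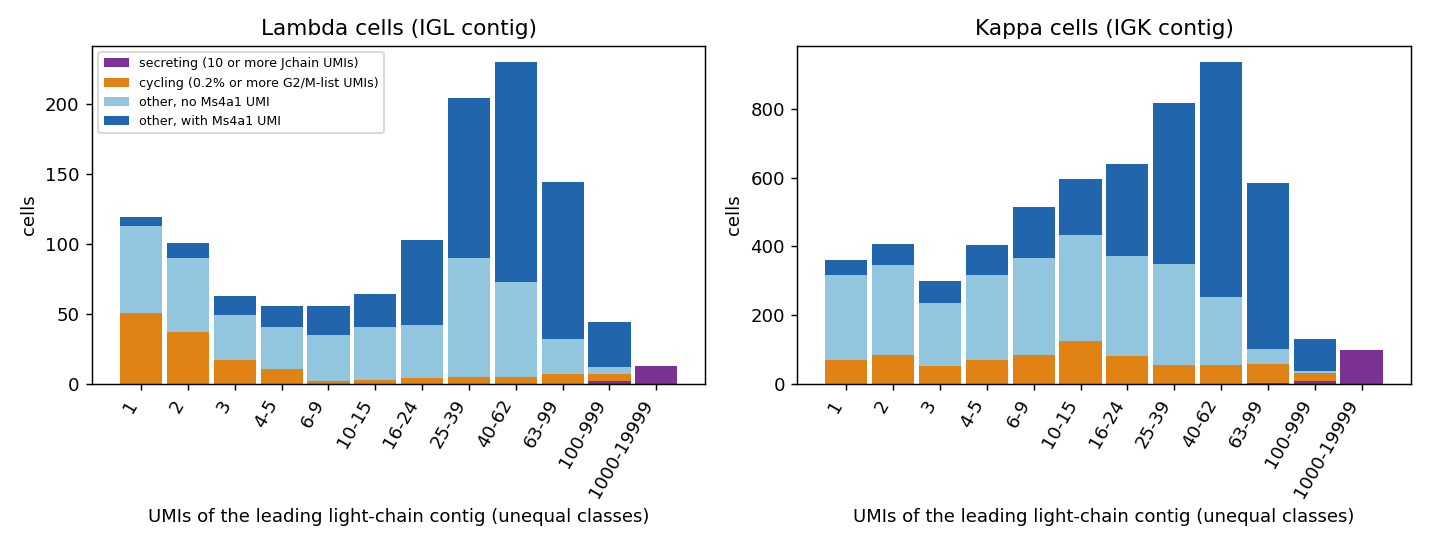
Number of lambda cells (left) and kappa cells (right) by UMIs of the leading light-chain contig, in classes of unequal width, coloured by transcript state as defined in the text. Lambda cells form 2 humps on these widening classes, which are not a density per UMI, and cycling cells (orange) are 105 of the 283 cells with 1 to 3 contig UMIs but 29 of the 802 with 10 or more.

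The 283 weakly supported cells resembled cells without a light chain in their states. Cycling cells, as defined below, were 37.1% of them, against 32.4% of the IGH-only cells and 3.62% of the 802 cells. An Ms4a1 UMI outside the cycle was found in 10.95%, 11.01% and 62.2% of these sets. Kappa cells with 1 to 3 contig UMIs were 19.4% cycling and 15.8% Ms4a1-positive, against 10.4% and 56.6% with 10 or more. The contigs themselves also differed: the V part departed from its germline gene in 172 of the 283 cells (60.8%, 54.8 to 66.5) and in 27 of the 112 (24.1%). Among the 787 cells with 10 or more contig UMIs that were not secreting, 5 departed (0.635%, 0.207 to 1.48), against 11 of 15 antibody-secreting lambda cells. Such departures were not counted for kappa contigs, and sequence errors in contigs of few UMIs were not assessed. In 250 of the 283 cells (88.3%) the V, J and CDR3 sequence was also carried by a secreting cell of the library, and in 520 of the 802 (64.8%). The same held for 62.4% of kappa cells with 1 to 3 contig UMIs and 19.6% of those with 10 or more. Barcodes with markers of T, NK or plasmacytoid dendritic cells and no Cd79a UMI, which should lack a lambda chain, had an IGL contig in 16 of 1469 cases (1.09%, 0.624 to 1.76), with a median of 2.5 UMIs. None of these 1469 had 10 or more UMIs, which allows a share of up to 0.204% (3 counts of the total). IGK contigs stood in 71 of the same barcodes (4.83%), 4 of them with 10 or more UMIs (0.272%, 0.0742 to 0.696). Whether RNA from secreting cells gave the weak contigs was not tested. Below, supported cells are the 802 and the 3803 kappa cells with the same support, and the main results are given with and without this limit. The limit of 10 UMIs was chosen after the data were seen, and it selects on light-chain RNA, which goes with stage, in both classes.

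The joined sequences show how narrow the lambda repertoire was. The germline ends, from the GENCODE M21 transcripts, are printed first, V in lower case and J in capitals, each 5′ to 3′ on the coding strand and cut at the limits of the CDR3, the loop that the joint encodes.
IGLV1 end: tgtgctctatggtacagcaaccatttc
IGLV2 end: tgtgctctatggtacagcacccatttc
IGLV3 end: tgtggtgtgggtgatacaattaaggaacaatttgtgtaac
IGLJ1 start: CTGGGTGTTC
IGLJ2 start: TTATGTTTTC
IGLJ3 start: GTTTATTTTC

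The joints below were the leading CDR3 of their V and J pair, or recurred with letters that were matched to neither germline end. Capitals mark the letters matched to J alone.
IGLV1 with IGLJ1, first: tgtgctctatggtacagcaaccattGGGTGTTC
IGLV2 with IGLJ2: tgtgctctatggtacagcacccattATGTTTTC
IGLV1 with IGLJ1, second: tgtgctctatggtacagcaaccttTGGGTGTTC
IGLV1 with IGLJ3: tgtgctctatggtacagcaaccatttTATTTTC
IGLV3 with IGLJ2: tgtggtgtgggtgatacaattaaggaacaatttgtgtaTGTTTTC
IGLV2 with IGLJ1: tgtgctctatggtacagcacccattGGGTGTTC
IGLV2 with IGLJ2, with 2 added letters: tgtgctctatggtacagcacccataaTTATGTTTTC
IGLV1 with IGLJ1, changed: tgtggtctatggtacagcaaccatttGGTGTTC

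The first IGLV1 with IGLJ1 joint stood in 300 lambda cells with 296 different heavy chains, and 199 of the 300 had 10 or more contig UMIs. The IGLV2 with IGLJ2 joint stood in 196 cells, each with its own heavy chain, and 173 were supported at that level. Both can be made from germline letters alone. The IGLV1 with IGLJ3 joint stood in 78 cells and the IGLV3 with IGLJ2 joint in 72, with 64 and 68 supported. The IGLV2 with IGLJ1 joint, which links segments of different clusters, stood in 18 cells, 13 of them supported. The same lambda sequence thus recurred beside unrelated heavy chains.

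Matching stopped at the first mismatch, and so left 2 letters of the second IGLV1 with IGLJ1 joint unassigned. Only the first of these, a t in place of an a, departs by position from the IGLV1 end. This joint was of another kind. It stood in 174 cells with 171 different heavy chains, but its median support was 2 UMIs, and 31 of the 174 cells reached 10. The V part departed from germline in 126 of the 174 (72.4%). Secreting cells carried this joint with 1270 and 7859 UMIs. The joint named changed stood in 19 cells with a median of 2 UMIs and a changed V part in 18, and a secreting cell held it with 8541 UMIs. Unmatched letters did not always go with weak support: the IGLV2 with IGLJ2 joint with 2 added letters stood in 19 cells at a median of 25 UMIs, 17 of them supported, with no secreting carrier. For comparison, the IGLV3 with IGLJ2 joint had a median of 31 UMIs, no V change in 72 cells and no secreting carrier. The first IGLV1 with IGLJ1 joint had a median of 33 UMIs, a V change in 56 of 300 cells (18.7%) and 5 secreting carriers. The leading IGLV2 with IGLJ2 joint had 2 secreting carriers and the IGLV1 with IGLJ3 joint 1. A secreting carrier alone thus does not set the second joint apart.

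The segments lie in 2 clusters of the lambda locus on chromosome 16 of GRCm38, on the minus strand. In the direction of transcription the order is Iglv2 (19260401 to 19260859), Iglv3 (19241207 to 19241690), Iglj2 (19200198 to 19200235) within the range annotated for Iglc2 (19198396 to 19200351), Iglv1 (19085017 to 19085500), Iglj3 (19067041 to 19067078), Iglc3 (19065230 to 19065681), Iglj1 (19063225 to 19063262) and Iglc1 (19061618 to 19062071). Joining within a cluster prevailed: Iglv2 and Iglv3 lie upstream of Iglj2, and Iglv1 lies upstream of Iglj3 and Iglj1. Of the 802 supported cells, 376 joined IGLV1 to IGLJ1 (46.9%, 43.4 to 50.4), 213 joined IGLV2 to IGLJ2 (26.6%) and 107 joined IGLV1 to IGLJ3 (13.3%). IGLV3 was joined to IGLJ2 in 74 cells (9.23%, 7.31 to 11.4).

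Joints that reach across the clusters were few but present. IGLV2 was joined to IGLJ1 in 25 of the 802 cells (3.12%, 2.03 to 4.57) and to IGLJ3 in 5, and IGLV3 to IGLJ1 in 1. An IGLV1 contig with IGLJ2, which lies upstream of it, was listed in 1 of the 802 cells and 3 of all 1197. Since IGLV1 and IGLV2 agreed in 97.3% of their last 300 aligned letters, the assignment of such a contig to a V segment may be uncertain.

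**Figure D2:**
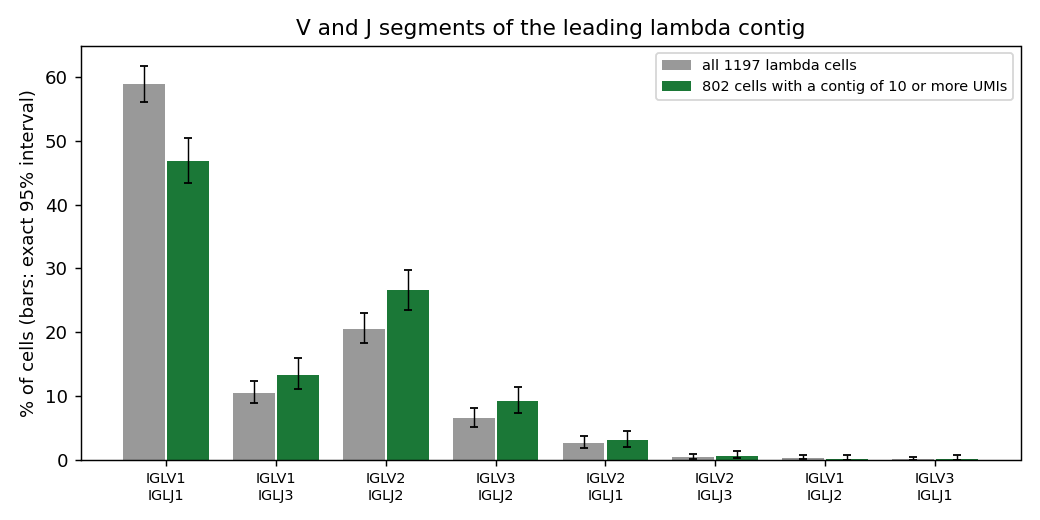
Percent of lambda cells by V and J segment of the leading contig, for all 1197 cells (grey) and the 802 with 10 or more contig UMIs (green), with exact 95% intervals. IGLV1 with IGLJ1 takes 59.0% of all cells and 46.9% of the supported ones, and the other frequent pairs are correspondingly higher among the latter.

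Weak contigs tilted the use of segments. IGLV1 made up 262 of the 283 cells with 1 to 3 contig UMIs (92.6%) but 484 of the 802 (60.3%, 56.9 to 63.8). IGLV2 went from 6.71% to 30.3% and IGLV3 from 0.707% to 9.35%. Over all 1197 cells the shares were 69.8%, 23.6% and 6.60%, and IGLJ1, IGLJ2 and IGLJ3 took 61.7%, 27.3% and 10.9%. In the 802 cells IGLJ1 took 50.1%, with 35.9% for IGLJ2 and 14.0% for IGLJ3.

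Lambda joints had few added letters and often shared letters of both ends. Among supported cells whose joint could be matched to germline, 708 of 793 (89.3%) needed no letter beyond the V and J ends, against 93.8% of 3761 kappa joints. Letters that could belong to either end were present in 70.0% of these lambda joints and 18.1% of the kappa joints. Over all cells the shares without added letters were 76.9% for lambda and 89.9% for kappa, since 37.9% was reached among lambda contigs of 1 to 3 UMIs. A substitution in the V part of the CDR3 also counts as an added letter here. So do the letters between it and the J match, even where they equal the germline V letters.

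The number of different light chains was small for the number of cells. The 802 supported cells held 64 different combinations of V, J and CDR3, and the leading 5 covered 69.2% of the cells. The 3803 supported kappa cells held 1028, and their leading 5 covered 5.26%. Heavy chains showed no such narrowing, with 795 different ones among the 802 lambda cells and 3739 among the 3803 kappa cells.

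Counts per gene were next set against the contigs. Iglv1, the variable segment in most lambda contigs, stood at 9613 CPM in supported lambda cells that were not secreting, at 1375 CPM in cells with 4 to 9 contig UMIs and at 193.7 CPM with 1 to 3. It stood at 365 CPM in supported kappa cells that were not secreting and at 481 CPM in IGH-only cells. Iglv2 gave 3054, 269, 14.27, 58.3 and 92.5 CPM in the same order, and Iglv3 gave 1069, 156, 24.98, 84.8 and 82.7 CPM. The high levels in supported lambda cells follow from choosing them by lambda contig UMIs of the same RNA and are a description of the set. By summed level the cells with 1 to 3 contig UMIs, chosen for few lambda contig UMIs, were the lowest set for each of the 3 genes. Iglv1 was not confined to cells with an IGLV1 contig. Among all lambda cells, the 79 with an IGLV3 contig held Iglv1 at 5137 CPM (70.9% of cells) and Iglv3 at 6282 CPM. The 283 with an IGLV2 contig held Iglv1 at 3874 CPM (67.1% of cells) and Iglv2 at 30780 CPM. Iglv1 counts alone thus do not name the V segment of the contig.

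**Figure D3:**
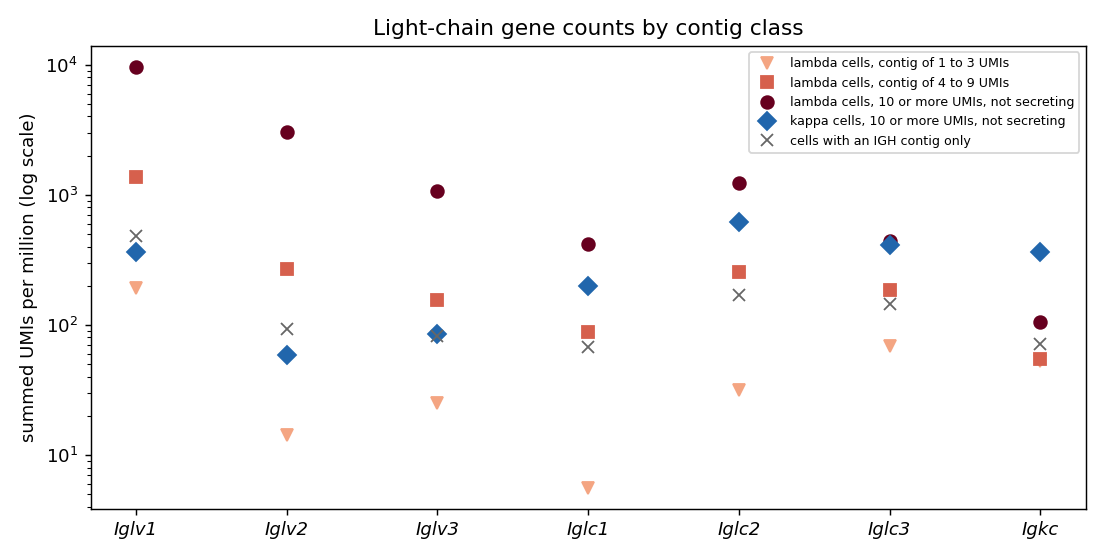
Summed CPM (log scale) of lambda variable genes, lambda constant genes and Igkc in 5 sets of cells. Supported lambda cells (dark circles) lead for Iglv1, Iglv2, Iglv3, Iglc1 and Iglc2, kappa cells (diamonds) lead for Igkc, and lambda cells with 1 to 3 contig UMIs (triangles) lie lowest for every lambda gene.

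Constant-region counts separated the classes less. With each cell thinned to 2000 UMIs, an Iglc1 UMI was found in 55.9% of 676 supported lambda cells and 29.4% of 3633 kappa cells, and an Iglc2 UMI in 74.6% and 42.7%. Barcodes with T, NK or plasmacytoid dendritic markers, no contig and no Cd79a UMI gave 0.890% and 2.52% for these genes at the same depth. The values in kappa cells were above those of this reference. Requiring no Cd79a UMI leaves out barcodes with stray B-cell RNA, so the reference may understate the background. Iglc3 did not separate the classes: 49.9% against 51.3%, a difference of -1.48 points (-5.58 to 2.61), with 23.2% in the reference barcodes. Over all cells the difference was -4.81 points (-8.13 to -1.42). Iglc2 and Iglc3 agree in 93.7% of aligned letters, and how reads that match both were counted is not given in the sources used here. Igkc, the kappa constant region, was found in 16.6% of supported lambda cells and 53.5% of kappa cells, with 5.42% in the reference. Thinning left out 220 of all lambda cells (18.4%) and 535 kappa cells (9.25%) with fewer UMIs. Of the supported cells it kept 676 of 802 lambda and 3633 of 3803 kappa cells, so a larger part of the lambda cells was left out.

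Cells were sorted into 4 transcript states to follow the lambda share through development. Secreting cells had at least 10 UMIs of Jchain, the joining chain of secreted IgA and IgM. Cycling cells took at least 0.2% of their UMIs from 12 G2/M genes, and the rest were split by the presence of an Ms4a1 UMI. The cycling limit is a cut through a range: 239 lambda and kappa cells lay between 0.15% and 0.25%, whereas 5 lay between 5 and 19 Jchain UMIs.

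Lambda cells made up 17.4% (16.3 to 18.5) of supported lambda and kappa cells, close to the 17.1% (16.3 to 18.0) of all such cells. The share was 18.8% (17.3 to 20.3) among supported Ms4a1-positive cells and 18.5% (16.5 to 20.6) among Ms4a1-negative ones. Among supported cycling cells it was 6.86% (4.64 to 9.70), with 29 lambda and 394 kappa cells. Before the support limit, 147 lambda and 753 kappa cells were cycling, a share of 16.3% (14.0 to 18.9), so the low lambda share in cycling cells rests on leaving out weak contigs. Among secreting cells 15 were lambda and 113 kappa (11.7%, 6.71 to 18.6), all of them supported.

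**Figure D4:**
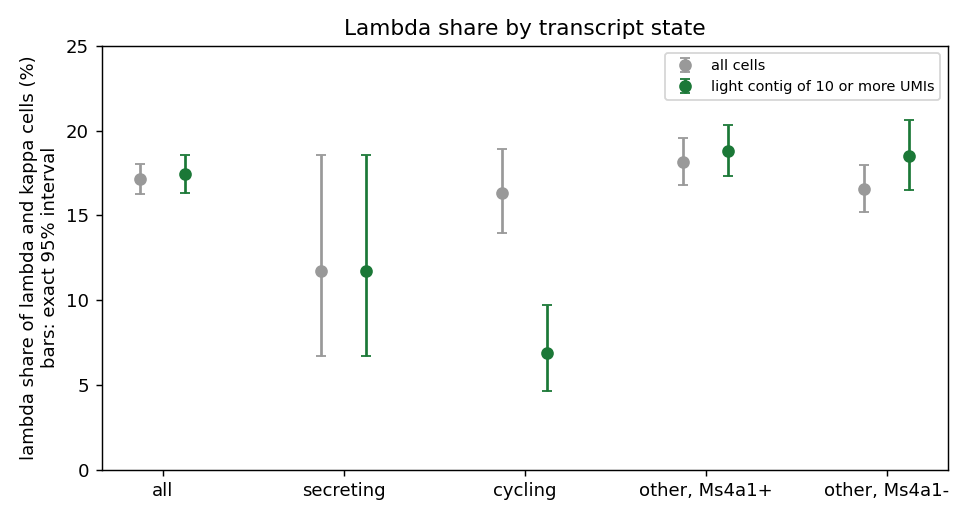
Lambda share of lambda and kappa cells in each transcript state, for all cells (grey) and for cells with a light contig of 10 or more UMIs (green), with exact 95% intervals. The share among cycling cells is 16.3% in all cells and 6.86% in supported cells, while the other states stay between 11.7% and 18.8%.

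Seen from the lambda side, 62.2% (58.8 to 65.6) of the 802 cells were Ms4a1-positive, 32.3% Ms4a1-negative, 3.62% (2.43 to 5.15) cycling and 1.87% secreting. The 3803 kappa cells were 56.6% (55.0 to 58.2), 30.0%, 10.4% (9.41 to 11.4) and 2.97%. At 2000 UMIs an Ms4a1 UMI was found in 59.5% of lambda and 54.5% of kappa cells, a difference of 4.97 points (0.890 to 8.95), with 1.85% in the reference barcodes. Over all cells that difference was 1.37 points (-2.00 to 4.77). Once support was required, 63.9% (59.0 to 68.6) of IGLJ1 cells and 63.9% (58.0 to 69.4) of IGLJ2 cells were Ms4a1-positive. IGLJ3 cells were lower, at 51.8% (42.1 to 61.3), and 46.4% (37.0 to 56.1) of them were Ms4a1-negative, against 28.6% and 31.9%. Over all cells 16.9% of IGLJ1 cells were cycling, against 4.59% of IGLJ2 cells, and in the supported cells these values were 4.23% and 3.47%.

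Genes were then compared between lambda and kappa cells as log2 ratios of CPM with 1 CPM added. Of 10921 genes with enough counts, 53 were at least 2-fold higher in all lambda cells (0.485%) and 141 at least 2-fold lower (1.29%). Among supported cells 97 of 9842 genes were at least 2-fold higher (0.986%) and 191 lower (1.94%), with a median log2 ratio of 0.03 over all genes. Kappa segments accounted for 82 of the 191 lower genes and heavy-chain segments for 36. Lambda segments accounted for 4 of the 97 higher genes and heavy-chain segments for 14. Heavy-chain calls leaned on secreting cells: over all cells 46 heavy-chain genes were past 2-fold, and 10 of them stayed so without those cells.

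Of the 20 lists plotted, G2/M had the widest gap between supported lambda and kappa cells. The 12 G2/M genes, needed for mitosis, summed to 869 CPM in lambda and 1830 CPM in kappa cells, a log2 ratio of -1.07 (-1.13 to -1.02). All 12 were lower, and 9 were at least 2-fold lower against 1.94% of all genes. Ube2c, a ubiquitin-conjugating enzyme of mitotic exit, stood at 72.2 against 247 CPM, and Ccnb1, the mitotic cyclin B1, at 17.4 against 54.9 CPM. The proliferation marker Mki67 stood at 228 against 361 CPM. The 12 S phase genes, which include the Mcm helicase subunits, had a log2 ratio of -0.27 (-0.34 to -0.21), with 11 of 12 lower and 0 past 2-fold.

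In all cells, weak contigs included, both cycle lists pointed the other way. The log2 ratios were 0.08 (0.06 to 0.11) for G2/M and 0.29 (0.25 to 0.32) for S phase, with 11 of 12 and 12 of 12 genes above 0 and 0 past 2-fold. The 283 cells with 1 to 3 contig UMIs carried 4427 CPM of the G2/M list, near the 4168 CPM of IGH-only cells. Cycling state was defined by the same G2/M list, so the 2 readings are not independent. Within supported cycling cells the G2/M ratio was -0.42 (-0.49 to -0.34), with 11 of 12 genes below 0, and the S phase ratio 0.18 (0.07 to 0.28). In the Ms4a1-positive and Ms4a1-negative states, which by definition leave out cells over the G2/M limit, the S phase ratios were 0.19 (0.10 to 0.29) and -0.38 (-0.55 to -0.21).

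The recombination list was higher in its sum in supported lambda cells, through 3 of its genes. The list of 9 genes of V(D)J joining summed to 674 against 520 CPM, a log2 ratio of 0.38 (0.31 to 0.44), with 7 of 9 genes above 0, 0 past 2-fold and a median over the genes of 0.07. Over all cells the ratio was 0.09 (0.04 to 0.14), with 4 of 9 above 0. Rag1, which with Rag2 cuts the DNA at the segments, stood at 131 CPM in lambda and 66.8 CPM in kappa cells. Rag2 stood at 50.9 and 36.6 CPM, and Xrcc6, which encodes the DNA end-binding protein Ku70, at 252 and 178 CPM. The intervals of the ratio included 0 for the other 6 genes, Dntt, Lig4, Dclre1c, Xrcc4, Xrcc5 and Prkdc. At 2000 UMIs a Rag1 UMI was found in 21.6% of lambda and 12.8% of kappa cells, a difference of 8.83 points (5.68 to 12.2), with 1.11% in the reference. The difference was 5.14 points (2.35 to 8.10) over all cells. The list's log2 ratio was 0.38 (0.28 to 0.47) in Ms4a1-positive supported cells, with 6 of 9 genes above 0, and 0.33 (0.22 to 0.44) in Ms4a1-negative ones, with 4 of 8.

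Other genes of early stages were mixed. The list of surrogate light-chain genes, Vpreb1, Vpreb2, Vpreb3 and Igll1, gave a log2 ratio of -0.05 (-0.08 to -0.01) in supported cells with 2 of 4 genes above 0. It was -0.48 (-0.54 to -0.41) in the Ms4a1-negative ones among them and 0.10 (0.05 to 0.14), with 4 of 4 genes above 0, in the Ms4a1-positive ones. The early B list gave -0.13 (-0.19 to -0.07) in supported cells, with 2 of 7 genes above 0, and 0.08 (-0.01 to 0.17) in the Ms4a1-positive ones, with 5 of 7. It was -0.32 (-0.43 to -0.22) in the Ms4a1-negative ones, with 3 of 6. Over all cells the early B ratio was 0.02 (-0.02 to 0.06), with 6 of 8 above 0, and the surrogate light-chain ratio -0.06 (-0.09 to -0.03), with 3 of 4. Il7r, the receptor for interleukin 7, stood at 176 against 227 CPM in supported cells. Erg, a transcription factor, and Cd93, a surface protein of immature B cells, were the 2 above 0, at 26.4 against 19.02 and 144.6 against 125 CPM.

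MHC class II genes were lower in lambda cells with and without the weak contigs. Over all cells the 10 genes summed to 3492 against 5431 CPM, a log2 ratio of -0.64 (-0.66 to -0.62), with 10 of 10 below 0 and 0 past 2-fold. In supported cells the ratio was -0.49 (-0.51 to -0.47), with 8 of 10 below 0. H2-Aa, an antigen-presenting chain, stood at 425 against 669 CPM in supported cells, and Cd74, the invariant chain that escorts class II molecules, at 3766 against 5203 CPM. H2-Ob and H2-DMb1, which modulate peptide loading, were the 2 genes above 0, at 88.6 against 78.0 and 31.9 against 30.8 CPM.

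The MHC class II difference varied with state, although the gap between states was not tested. Supported Ms4a1-positive lambda cells had 7355 CPM and kappa cells 12234 CPM, a log2 ratio of -0.73 (-0.76 to -0.71) with 0 of 10 genes above 0. Supported Ms4a1-negative cells gave -0.36 (-0.44 to -0.28), with 5 of 9 genes above 0. Supported cycling cells gave -0.50 (-0.61 to -0.40), with 0 of 5, and the 15 secreting lambda cells gave -0.04 (-0.15 to 0.06). Without the support limit the ratio was -1.06 (-1.13 to -0.99) in cycling cells, -0.72 (-0.75 to -0.70) in Ms4a1-positive cells and -0.09 (-0.14 to -0.03) in Ms4a1-negative cells. The NF-kB list, whose factors act downstream of receptor and survival signals, followed in the Ms4a1-positive cells: 1068 against 1305 CPM, a log2 ratio of -0.29 (-0.36 to -0.22), with 0 of 10 above 0. In Ms4a1-negative cells it was 0.20 (0.10 to 0.30), and over all supported cells -0.01 (-0.07 to 0.04). Over all cells, weak contigs included, it was -0.18 (-0.22 to -0.13), with 0 of 10 above 0.

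The sums of the receptor signalling and mature B lists were higher in supported lambda cells, with 0 genes of either past 2-fold when states were pooled. The receptor signalling list gave a log2 ratio of 0.28 (0.26 to 0.29) with 10 of 11 genes above 0, but 0.04 (0.02 to 0.05) with 6 of 11 over all cells. Cd79a, a signalling partner of the receptor, stood at 4079 against 3075 CPM and Cd79b at 2422 against 2027 CPM. The mature B list gave 0.24 (0.19 to 0.30), with 7 of 11 above 0 and Fcer2a, Cr2, Cxcr5 and Ltb below, but -0.03 (-0.07 to 0.02) over all cells. Within supported cells it was 0.91 (0.79 to 1.04) among Ms4a1-negative cells, with 8 of 8 compared genes above 0 and 4 past 2-fold, and -0.07 (-0.14 to -0.01) among Ms4a1-positive ones. All 6170 genes compared in those Ms4a1-negative cells had a median log2 ratio of 0.04, and their share past 2-fold is not given here. Cd55, a complement regulator of that list, stood at 127 against 78.1 CPM, and Fcer2a (CD23) at 8.05 against 14.97 CPM. The survival list gave 0.10 (0.04 to 0.15) in supported cells, with 7 of 9 genes above 0 and 1 past 2-fold. Over all cells it gave -0.08 (-0.12 to -0.03), with 5 of 9 above 0. Within supported cells it was -0.11 (-0.18 to -0.03) among Ms4a1-positive and 0.34 (0.23 to 0.46) among Ms4a1-negative ones. Its highest members in supported cells were Pim2 and Bbc3, and Mcl1 and Bak1 were below 0. Pim2, a kinase that promotes survival, stood at 113 against 57.0 CPM, and Bbc3, which encodes the death protein PUMA, at 12.2 against 5.40 CPM.

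**Figure D5:**
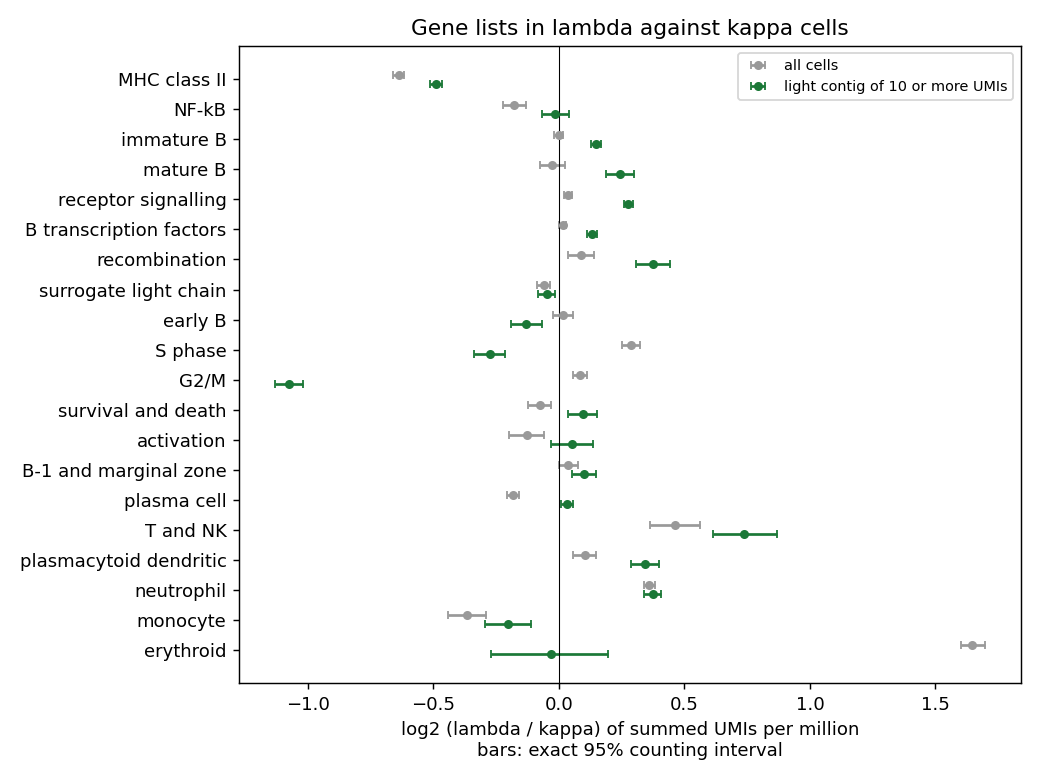
Log2 ratio of summed CPM in lambda against kappa cells for 20 gene lists, for all cells (grey) and for cells with a light contig of 10 or more UMIs (green), with exact 95% counting intervals. The G2/M list moves from 0.08 to -1.07 and the erythroid list from 1.65 to -0.03, whereas MHC class II stays below 0 at -0.64 and -0.49.

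The largest ratios over all cells rested on few barcodes. Of the 12 highest genes, 9 are red-cell genes, and 1 lambda barcode held 73.2% of the Hbb-bs (beta globin) UMIs. The erythroid list had a log2 ratio of 1.65 with 8 of 8 genes above 0, 0.27 without barcodes in which over 1% of UMIs came from another lineage's list, and -0.03 (-0.27 to 0.20) in supported cells. Ncam2 (52 UMIs) came from 2 lambda cells and Colec12 (33 UMIs) from 1. Dmrt3, a DM-domain transcription factor, was spread over 35 cells and stood at 6.87 against 1.57 CPM. Of the 12 lowest, Cstdc5, Stfa1, Cstdc4 and Stfa2l1 are cystatin-family genes with 3, 0, 0 and 0 UMIs in lambda cells, against 453, 268, 261 and 115 in kappa cells. Without barcodes of other lineages their log2 ratios lay between -0.20 and 0.42. Mcpt8, Fcer1a and Prg2 are granule or receptor genes of basophils, mast cells or eosinophils, and Prg2, Slpi and Ly6k were less than 2-fold lower or not lower without secreting cells. Shisa8 stood at 2.53 against 11.97 CPM, Wnt10a, a Wnt ligand, at 7.96 against 23.3 CPM and Slamf1, a surface receptor, at 0.724 against 3.76 CPM.

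The same rule was applied to supported cells, a choice made after these data were seen. Of the 12 highest genes it gave, 7 had a wider spread, and the others, named further below, leaned on single cells. Dmrt3 had a UMI in 31 of 802 lambda cells (3.87%) and 25 of 3803 kappa cells (0.657%), with 10.95 against 1.45 CPM. Ifitm1, an interferon-induced membrane protein, was found in 12.1% and 3.63% of cells, and Col25a1, a collagen, in 12.1% and 4.81%. F5, coagulation factor V, was found in 10.7% and 4.76%, Pde4c, a phosphodiesterase for cyclic AMP, in 12.5% and 6.26%, Mcf2l in 6.98% and 2.52%, and Ret, a receptor tyrosine kinase, in 2.24% and 0.500%. In reference barcodes without contigs these 7 genes were found in between 0.0725% and 1.957%. Each of the 7 was also found in a larger share of IGH-only cells than of supported kappa cells: 1.28% for Dmrt3, 8.45% for Ifitm1, 10.8% for Col25a1, 10.2% for F5, 7.23% for Pde4c, 5.84% for Mcf2l and 1.06% for Ret. Median depth was 3415 UMIs in supported kappa and 2625 UMIs in supported lambda cells, and the shares of these 7 genes were not compared at a fixed depth.

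Of the lowest genes in supported cells, 4 act in division: Ube2c, Ccnb1, Cdkn3 and the helicase gene Pif1. Tmprss3, a membrane protease, was found in 2.12% of lambda and 9.36% of kappa cells, and in 14.2% of IGH-only cells. H1fx, a linker histone, was found in 1.995% and 5.50%, and Shisa8 in 1.12% and 5.02%. The highest list also held Chil3, Fcnb, Abca13 and Elane, which are genes of granulocyte precursors, and Gzma of killer cells. A single lambda cell held 69.3% of the Chil3 UMIs, 66.7% of Fcnb, 50% of Abca13, 62.3% of Elane and 25.2% of Gzma. Car1, Cpa3 and 3 cystatin genes among the lowest were likewise led by 1 kappa cell, which held between 41.7% and 97.0% of their UMIs.

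Markers of other cell types were present in both classes. In supported cells the neutrophil list stood at 2995 against 2312 CPM with 5 of 8 genes above 0, a UMI of it was found in 53.0% of lambda and 49.7% of kappa cells, and 1 lambda cell held 46.5% of its UMIs. The T and NK list stood at 209 against 125 CPM with 5 of 5 compared genes above 0 and 14.9% of its UMIs in 1 lambda cell, the plasmacytoid dendritic list at 1022 against 806 CPM with 7 of 8, and the monocyte list at 357 against 411 CPM with 3 of 6. Of the genes of these 4 lists, only Fcgr1 was at 0 in supported lambda cells. The pooled neutrophil direction did not hold in each state: supported Ms4a1-negative cells stood at 247 against 1372 CPM, with 0 of 8 genes above 0, and in supported cycling cells 1 lambda cell held 99.7% of the list's UMIs. Leaving out the 33 lambda (2.76%) and 131 kappa (2.26%) barcodes with over 1% of UMIs from such a list gave ratios over all cells of -0.66 for MHC class II, 0.10 for recombination, -0.01 for mature B and 0.15 for the cycle lists together, with 29 genes at least 2-fold higher in place of 53. Scrublet scores of 0.25 or more marked 7.27% of lambda and 7.40% of kappa cells.

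Heavy chains of lambda and kappa cells were alike in most features. IGHV1, the largest V family, served 53.1% (50.3 to 56.0) of lambda and 56.2% (54.9 to 57.4) of kappa cells. The heavy CDR3 measured 40.7 ± 8.47 nucleotides (SD, n = 1197 cells) in lambda and 41.0 ± 8.49 (SD, n = 5786 cells) in kappa cells. Of 48 IGHV genes with at least 60 cells, the lambda share ranged from 9.30% (4.90 to 15.7) for IGHV6-6 to 25% (16.4 to 35.4) for IGHV14-2. Of these 48 genes, only IGHV6-6 had an interval that left out the overall 17.1%. IgD was the constant region of the leading heavy contig in 4 lambda and 62 kappa cells, a lambda share of 6.06% (1.68 to 14.8).

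Some heavy chains, with the same V, J and CDR3 nucleotides, stood in both classes. Over all cells 66 lambda cells (5.51%, 4.29 to 6.96) shared 1 of 49 heavy chains with 109 kappa cells (1.88%). Among supported cells 22 lambda cells (2.74%, 1.73 to 4.12) shared a heavy chain with 33 kappa cells (0.868%). A heavy chain of IGHV1-15 with IGHJ3 stood in 5 lambda and 15 kappa cells, as IGHA contigs of 1 to 3 UMIs beside 5 different lambda chains in the lambda cells. Its CDR3 was the following, with no letters marked.
IGHV1-15 with IGHJ3: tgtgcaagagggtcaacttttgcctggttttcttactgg

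Secreting lambda cells were few and rich in RNA. The 15 cells had 24 to 1946 Jchain UMIs, a median light contig of 8394 UMIs and 5.54% of all lambda-cell UMIs. Their heavy contig was IGHA in 14 cells and IGHG2B in 1, and 13 of the 15 used IGLJ1. IGHV14-2 with IGHJ1 served 7 of them, with 789 to 7430 heavy-contig UMIs over the 15 cells. Another 37 lambda cells had a contig of a switched isotype without secreting Jchain levels, at a median of 3 UMIs (1 to 18), against a median of 2975 UMIs in the secreting cells.

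A single IGHV14-2 with IGHJ1 heavy chain recurred in 8 lambda and 5 kappa cells, 4 of the lambda cells secreting, with contigs from 1 to 3256 UMIs. Its CDR3 is shown because it joins secreting cells and cells with few contig UMIs.
IGHV14-2 with IGHJ1: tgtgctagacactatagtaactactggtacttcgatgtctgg

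The Kit+ libraries held few such cells: 5 lambda and 27 kappa cells in control Kit+, 4 and 17 in Mll3/4 deleted Kit+, and 6 and 16 in Mll3/4SI Kit+. These numbers are too small for the lambda share to be compared between genotypes. Kept barcode sequences of the B220lo library recurred in the Kit+ libraries in 269, 332 and 233 cases, of which 15, 24 and 26 were lambda cells. Lambda cells summed to 5527378 UMIs (median 2707 per cell) and kappa cells to 28737860 UMIs (median 3237).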

How the data were processed

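The deposited matrices hold UMI counts per gene and barcode, and the deposited contig tables hold counts of UMIs per assembled receptor contig. Both were made with Cell Ranger 7.1.0 on mm10, per the submitters' processing notes. Libraries were 10x Genomics 5′ v2, per the labels' protocols. Barcodes were filtered as stated, doublets were left in and scored with Scrublet in scanpy 1.11.5, whose own threshold marked 0 barcodes and so had not worked. Light chains were read from the contig with the most UMIs. UMIs were summed per class and given as CPM. Intervals are exact Poisson, binomial (Clopper-Pearson) or conditional ratio intervals at 95%, and Newcombe intervals for differences of shares. Such intervals treat UMIs and cells as independent. A gene was compared with at least 20 UMIs in lambda cells or 20 expected there from the kappa CPM. Numpy 2.4.6, scipy 1.17.1 and biopython 1.88 were used. The ratio step was tested on simulated data.

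Named genes were the 12 highest and 12 lowest log2 ratios, leaving out receptor segments, mitochondrial, ribosomal, numbered, Rik, sex-linked genes, plus members of the lists. Members and lists were chosen with earlier results of these data known. The contig limit of 10 UMIs, the removal of secreting cells or of barcodes with other lineages' genes, and the MHC class II and erythroid results were added after seeing the data. Germline ends were matched through 15 anchor letters of the contig. Iglc2 and Iglc3, and Iglv1 and Iglv2, are near-identical, so their counts are uncertain. The light-chain and heavy-chain constant lists, both dominated by receptor segments, had log2 ratios of -0.12 and -0.13 in supported cells, the plasma cell list 0.03, immature B 0.15, B transcription factors 0.13, activation 0.05, survival 0.10, and B-1 and marginal zone 0.10. Over all cells the ratios were -0.41, -0.31, -0.18, -0.0002, 0.02, -0.13, -0.08 and 0.04 in the same order. The immature B sum in supported cells hid mixed directions: 3 of its 8 genes were above 0, with a median log2 ratio of -0.18 over the genes. Its most abundant gene, Ly6d, stood at 3608 against 2566 CPM.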

Additional observations from a re-analysis of the deposited data

How the results depend on the processing

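No paired analysis was possible because each group is 1 library. Of 112 alternative values, 75 stayed within the interval or 1.5-fold range of the value given, 33 moved, and 4 changed sign where the interval over all cells left out 0. The mature B ratio (-0.0252, interval including 0) was above 0 in 3 of the 33. Contigs of 3 UMIs or more gave an S and G2/M ratio of -0.377 (0.158 over all cells), mature B 0.213, recombination 0.191, MHC class II -0.476, erythroid 0.983, 2.49% sharing a heavy chain and an Ms4a1 difference of 5.78 points. A light contig of 10 UMIs or more gave -0.753, 0.245, 0.375, -0.489, -0.0325, 2.74% and 4.97 points in the same order, and 97 higher genes. With 1 heavy and 1 light contig the values were 0.225 for the cycle, -0.0711 for erythroid, 35 higher genes and 3.12% sharing. The stricter cell filter gave 0.202 for the cycle, 2.45 for erythroid and a lambda share of 15.7%. Leaving out Scrublet scores of 0.25 or more gave 0.232 for the cycle. Without secreting cells MHC class II was -0.671. Without barcodes of other lineages it was -0.663, with erythroid 0.267 and 29 higher genes. Weighting kappa cells by Ms4a1 gave -0.680 and erythroid 1.60. Thinning to 2000 UMIs gave cycle 0.122, mature B 0.118, MHC class II -0.493, erythroid 0.342 and 29 higher genes. Higher genes numbered 16 with 10 CPM added, 29 with at least 50 UMIs and 80 with no minimum, against 53. The number of genes 2-fold lower stayed between 101 and 191 under all 14 alternatives. The causes of these shifts were not tested. Depth limits single cells: a contig of 1 UMI cannot be told from a stray molecule.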

Other observations

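Cells with both light chains and cells with a lambda contig alone belong to no comparison above. IGH, IGK and IGL contigs stood together in 260 cells, at a median of 3793 UMIs, and 51.2% of them were Ms4a1-positive and 13.1% cycling. An Iglv1 UMI was found in 88.1% and an Igkc UMI in 58.8% of these cells. Scrublet scores reached 0.25 in 27 of them (10.4%), against 7.27% of lambda cells. An IGL contig with neither IGH nor IGK stood in 145 cells, of which 35.2% were Ms4a1-positive and 10.3% cycling, and 88.3% had an Iglv1 UMI.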
